A study of Homo sapiens with 9 samples.

Results

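In HMC3 cells treated for 6 days with the SLO cocktail, 94 of the 61544 genes listed met a rule that asks for a response at the full dose and little or none at the lower one. Of these, 58 were higher in SLO than in VEH by at least 1.6 times and 36 were lower by at least 1.6 times, while their mean in SLO ½ stayed between 87.0% and 115% of that of VEH. The genes were chosen by the mean TPM (a transcript level corrected for gene length and library size) of the 3 libraries of each group, among protein-coding genes with a mean of at least 50 counts over the 9 libraries, of which there were 10740. HMC3 is a human microglial line immortalized with the SV40 large T antigen. SLO libraries came from cells given SBI-0206965 (which blocks ULK1, a kinase that starts autophagy) at 10 µM, 1 µM O-151 (an inhibitor of the DNA repair glycosylase OGG1) and 1 µM Lopinavir (an HIV protease inhibitor that also disturbs Lamin A processing), SLO ½ libraries from cells given 5, 0.5 and 0.5 µM of them, and VEH libraries from cells given their solvent DMSO. Each group had 3 libraries, and all 9 came from the same line, grown in the same medium with serum. The labels do not say whether the replicates were separate cultures, so the spread between them may be technical.

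Because the rule was applied to the same 9 libraries, the 3 comparisons between groups chose the genes, and the values below describe them without a test of those comparisons. The words "full dose only" also need care. By edgeR's quasi-likelihood test, 20 of the 94 genes did pass an adjusted p of 0.05 in SLO ½ against VEH, all with small differences: 16 of the raised genes were slightly higher at the lower dose, and of the lowered genes IMPDH1, MT2A and CAV1 were slightly lower and IL11 slightly higher. CXADR, TXNDC16, SLC12A2, RAB11FIP1, CREG1, FAM210B, RHOB, ENAH and PRKACB are among the 16. Over all 14727 genes tested, 52.0% passed in that comparison.

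Cells that enter senescence stop dividing but remain metabolically active, enlarge, remodel their cytoskeleton and secrete cytokines, growth factors, matrix proteins and proteases, together called the senescence-associated secretory phenotype (SASP). Much of this program, and much of the response of cells to growth factors and stress, is read by AP-1, a pair of FOS and JUN family proteins that binds short DNA motifs near its target genes. The genes described here include members of both families, several secreted factors and receptors, and some proteins of the actin cytoskeleton and of membrane traffic.

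Libraries held 14834295 to 19674841 reads on genes, and the biological coefficient of variation was 2.90% (SLO ½) to 4.53% (VEH). Of 16 microglial markers, 13 were below 1 TPM in every library, TMEM119, P2RY12, CX3CR1, CSF1R, PTPRC and SPI1 among them, whereas fibroblast and mural markers such as FN1, COL1A1 and TAGLN were abundant. The summed level of the 11 fibroblast and mural markers was 9069 to 10096 TPM for VEH, 8419 to 8840 for SLO ½ and 7942 to 8223 for SLO, that of the 16 microglial markers was 137 to 156, 166 to 182 and 178 to 198, and that of 6 endothelial markers stayed below 3 TPM in every library. None of these markers is among the 94 genes, and the part of such shifts in the results below was not tested. In bulk RNA a smaller number of cells with a transcript and less of it per cell cannot be told apart.

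Genes that answer the full dose alone were few among those that answer it. At 1.6 times or more, 1092 eligible genes were higher in SLO than in VEH and 602 were lower, and only 5.31% and 5.98% of these stayed between those limits of VEH in SLO ½. Another 1031 and 566 had already moved the same way at the lower dose. Among the raised genes the ratio of SLO to VEH ran up to 2.86 with a median of 1.72, and 8 were at 2 times or more. The lowered genes ran from 0.317 to 0.624 of VEH with a median of 0.528, and 11 were at or under 50% of VEH. No SLO library of any of the 94 genes overlapped the VEH libraries, which the choice of genes largely fixes. For comparison, SLO and VEH did not overlap for 66.8% of all genes tested.

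**Figure D1:**
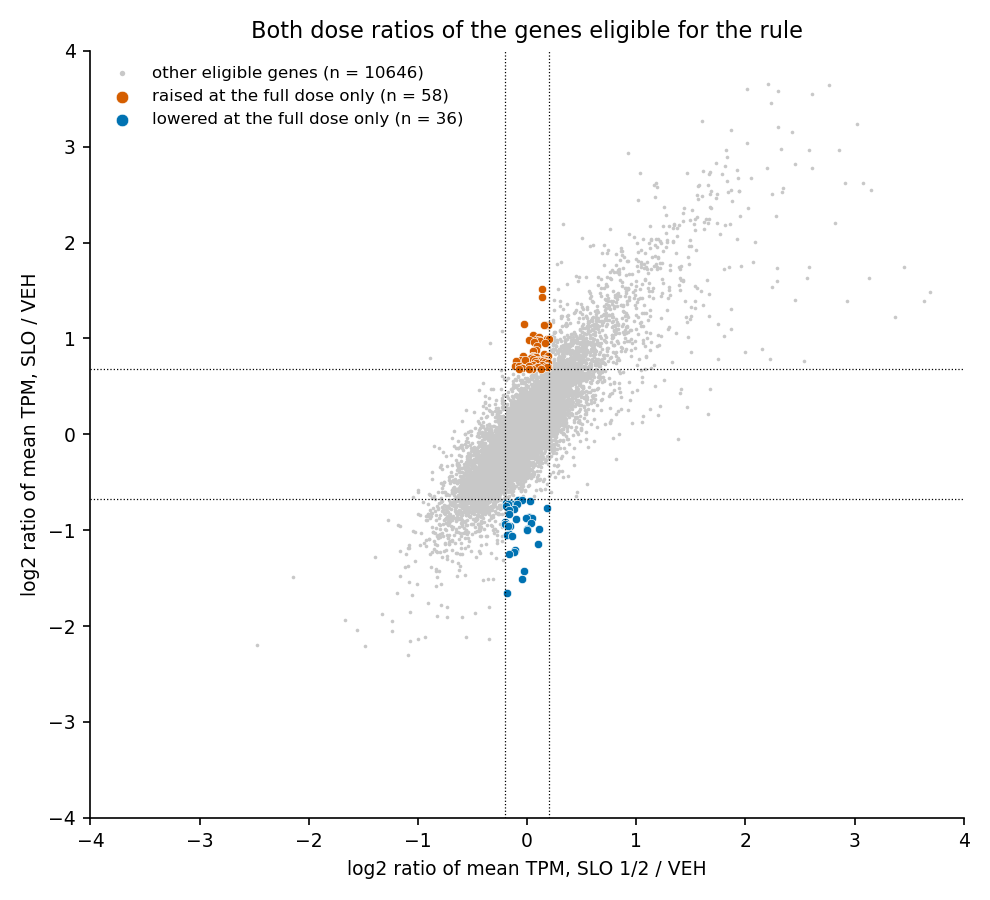
Log2 ratio of mean TPM in SLO ½ to VEH (x axis) against SLO to VEH (y axis) for the 10740 eligible genes, with dotted lines at the limits of the rule (87.0% and 115% of VEH on the x axis, 1.6 times on the y axis). Most genes lie along a rising diagonal, and the 58 raised and 36 lowered genes are the thin strips above and below its centre. 9 genes lie outside the axes.

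At the lower dose the means of most chosen genes lay on the side of their change in SLO. The rule used both ratios, and both share the VEH mean, so nothing follows from this lean. The mean in SLO ½ was above VEH for 49 of the 58 raised genes and below it for 9, with a median ratio of 1.07, and it was below VEH for 29 of the 36 lowered genes and above it for 7, with a median of 0.922. The median ratio over all eligible genes was 0.954. The 3 SLO ½ libraries lay entirely outside the 3 VEH libraries for 14 raised and 10 lowered genes, against 58.5% of all genes tested. By edgeR all 58 and all 36 passed in their own direction in SLO against VEH, where 32.9% of all tested genes were called higher and 32.1% lower, and in SLO against SLO ½, where these shares were 20.8% and 20.3%. Nothing follows from these calls, since the same libraries chose the genes.

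AP-1 subunits were found on both sides. FOSL1 encodes FRA-1, a FOS family protein that lacks a strong activation domain of its own, and it was at 245, 274 and 285 TPM in VEH, 270.3, 275 and 278 with SLO ½ and 138, 158 and 127 with SLO. The 3 SLO libraries were at 52.6% of the VEH mean, and the other 6 overlapped each other. JUND encodes a JUN family member that is present in many resting cells, and it was at 54.1, 47.7 and 55.4 TPM in VEH, 58.8, 48.6 and 55.6 with SLO ½ and 95.01, 93.05 and 83.5 with SLO, or 1.73 times VEH. The proteins of both genes can dimerize with each other, and their transcripts left the VEH range in opposite directions.

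No other AP-1 gene met the rule. FOS had a mean of 35.1 ± 6.48 TPM (SD, n = 3) in VEH, 6.32 ± 5.29 with SLO ½ and 7.65 ± 1.32 with SLO, so that it was lower at both doses (edgeR log2 change -2.18 ± 0.23 (SE) in SLO, adjusted p = 1.26e-09, and -2.42 ± 0.23 in SLO ½, adjusted p = 6.05e-10). FOSB, at a lower level, fell likewise, by edgeR log2 changes of -1.92 ± 0.19 in SLO (adjusted p = 4.05e-10) and -1.61 ± 0.18 in SLO ½ (adjusted p = 8.83e-09). JUN, the most abundant of them, had a mean of 302 ± 2.97 TPM in VEH, 229 ± 7.51 with SLO ½ and 275 ± 12.3 with SLO, with the lowest values at the lower dose. FOSL2 was at 101, 98.9 and 121 TPM, higher in SLO by an edgeR log2 change of 0.27 ± 0.04 (adjusted p = 1.62e-06) and not called in SLO ½ (adjusted p = 0.814), and JUNB did not pass at either dose. Of 29 immediate early genes tested, 15 passed upwards and 12 downwards in SLO, and 11 and 8 in SLO ½. Over all tested genes 32.9% passed upwards and 32.1% downwards in SLO, and 52.0% in either direction in SLO ½. The counts of this list and of later ones are to be read beside these shares.

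**Figure D2:**
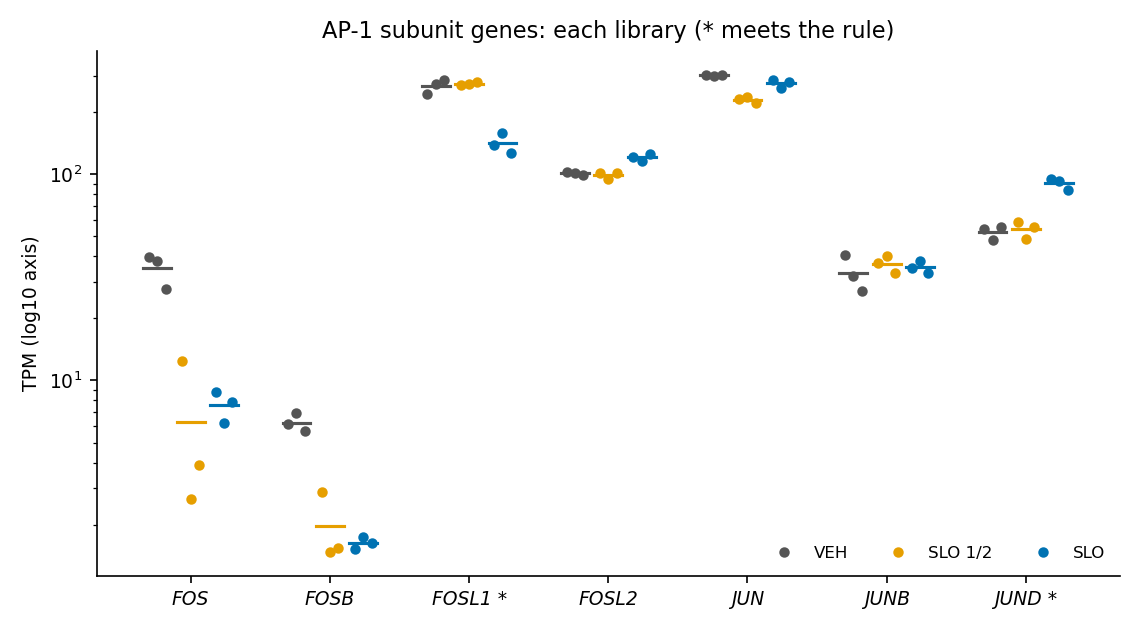
TPM of 7 AP-1 subunit genes in each of the 9 libraries on a log10 axis (points) with the mean of each group (bars). FOSL1 is lower and JUND, and by less FOSL2, higher in SLO alone, whereas FOS and FOSB are lower at both doses.

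Promoters of the lowered genes held the AP-1 motif more often than promoters at large. RefSeq windows of 300 bases (250 before and 50 after a transcription start, GRCh38.p14) were matched by symbol for 78 of the 94 genes, 51 raised with 82 windows and 27 lowered with 43. The motif TGANTCA, which reads the same on both strands, was in 18.6% of the windows of lowered genes, 3.66% of those of raised genes, 4.79% of the 13105 windows of eligible genes and 7.71% of all 35116 windows. By gene, at least 1 window held it for 7 of 27 lowered genes (EMP1, F3, IL11, MT2A, NME1, PLAUR and SERPINB7). It was in 2 of 51 raised genes (FRMD5 and RSPH3), 6.43% of eligible genes and 9.37% of all genes. Lowered, raised, eligible and all genes had 1.59, 1.61, 1.48 and 1.29 windows per gene. The windows of lowered genes had a median GC content of 61.7%, those of raised genes 68.0% and those of eligible genes 65.0%, and the part of base content in these shares was not tested. A match of letters is not evidence of binding, and the windows of FOSL1 itself and of CXADR, NRP1, GPR162, TEX15, NRG1, PKP3, GALNT6, PDGFB, PGPEP1, LPCAT2, FAM167A, RAB11FIP1, AGTR1, CLN8 and IFITM2 were not used here.

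The 250 bases before the start are shown for 5 of the 7 lowered genes whose windows hold the AP-1 motif, and for FRMD5, a raised gene that holds it too, so that the spacing of the motif can be compared. Capitals mark TGANTCA. The positions are chr19:43670170-43670419, minus strand for PLAUR, chr12:13196476-13196725, plus strand for EMP1, chr1:94541760-94542009, minus strand for F3, chr19:55370464-55370713, minus strand for IL11, chr18:63775168-63775417, plus strand for SERPINB7, which has 3 windows, and chr15:44194447-44194696, minus strand for FRMD5, which has 2.
PLAUR: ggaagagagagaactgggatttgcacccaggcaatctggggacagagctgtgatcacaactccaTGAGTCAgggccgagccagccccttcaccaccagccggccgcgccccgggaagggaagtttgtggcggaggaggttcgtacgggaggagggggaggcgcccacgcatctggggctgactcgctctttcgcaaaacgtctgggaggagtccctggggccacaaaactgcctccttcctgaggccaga
EMP1: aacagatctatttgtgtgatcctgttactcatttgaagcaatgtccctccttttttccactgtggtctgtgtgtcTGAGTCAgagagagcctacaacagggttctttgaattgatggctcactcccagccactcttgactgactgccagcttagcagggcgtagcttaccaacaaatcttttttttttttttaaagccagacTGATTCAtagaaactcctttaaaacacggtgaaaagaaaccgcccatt
F3: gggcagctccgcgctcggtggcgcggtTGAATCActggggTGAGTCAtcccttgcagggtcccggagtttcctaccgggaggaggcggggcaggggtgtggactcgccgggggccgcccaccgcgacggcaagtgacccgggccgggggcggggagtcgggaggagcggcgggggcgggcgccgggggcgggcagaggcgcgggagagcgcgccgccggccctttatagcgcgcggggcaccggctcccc
IL11: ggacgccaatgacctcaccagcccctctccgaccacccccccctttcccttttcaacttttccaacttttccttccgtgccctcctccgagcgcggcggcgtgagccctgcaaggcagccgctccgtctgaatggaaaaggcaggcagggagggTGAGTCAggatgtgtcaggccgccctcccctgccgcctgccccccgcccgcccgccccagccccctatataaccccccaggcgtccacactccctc
SERPINB7: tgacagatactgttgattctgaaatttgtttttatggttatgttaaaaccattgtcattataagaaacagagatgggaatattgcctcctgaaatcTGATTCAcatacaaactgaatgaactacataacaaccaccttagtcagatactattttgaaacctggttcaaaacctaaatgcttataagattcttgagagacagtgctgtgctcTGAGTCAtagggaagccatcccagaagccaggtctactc
FRMD5: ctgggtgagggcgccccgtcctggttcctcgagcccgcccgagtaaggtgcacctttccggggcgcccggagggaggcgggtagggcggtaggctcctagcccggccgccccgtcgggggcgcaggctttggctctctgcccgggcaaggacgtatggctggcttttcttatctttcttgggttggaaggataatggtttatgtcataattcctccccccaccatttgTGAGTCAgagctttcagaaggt
F3 holds a close pair that begins 223 and 210 bases before the start, EMP1 has matches at 175 and 48 bases, and SERPINB7 at 154 and 39. The single match begins 186 bases before the start in PLAUR, 96 in IL11 and 22 in FRMD5.

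Another 11 motifs were searched on both strands in the same windows: the TATA box (TATAAA), the CCAAT box (CCAAT), the cell cycle homology element (TTTGAA), an E2F site (TTCCCGC), the cyclic AMP response element core (TGACGT), the E-box (CACGTG), a TEAD site (GGAATG), a SMAD element (CAGACA), the hypoxia response core (ACGTGC, which can overlap the E-box and the cyclic AMP response element core), a forkhead site (TGTTTAC) and the CArG box by its name alone. CCAAT was in 18.6% of the windows of lowered genes, 35.4% of those of raised genes, 35.2% of those of eligible genes and 34.6% of all windows. The TATA box was in 14.0% of lowered, 7.32% of raised, 5.90% of eligible and 11.5% of all windows. Among raised genes the SMAD element was in 22.0% of windows and the hypoxia core in 15.9%, against 12.8% and 8.49% of eligible windows and 16.9% and 6.89% of all windows. Windows of a gene can overlap, so that a single site can count more than once in any of these shares. By gene these 2 motifs were in 25.5% and 19.6% of raised genes, against 16.7% and 11.6% of eligible genes and 19.9% and 8.33% of all genes. The E2F site was in 14.0% of lowered, 3.66% of raised, 9.92% of eligible and 6.55% of all windows. By gene, the CCAAT box, the TATA box and the E2F site were in 25.9%, 22.2% and 22.2% of lowered genes. The shares were 45.1%, 5.88% and 5.88% of raised genes, 44.5%, 7.84% and 13.4% of eligible genes and 39.7%, 14.0% and 7.82% of all genes. RHOB, the most abundant raised gene, is shown as an example of the CCAAT box, in capitals on either strand, 115 and 66 bases before the start (chr2:20446824-20447073, plus strand).
RHOB: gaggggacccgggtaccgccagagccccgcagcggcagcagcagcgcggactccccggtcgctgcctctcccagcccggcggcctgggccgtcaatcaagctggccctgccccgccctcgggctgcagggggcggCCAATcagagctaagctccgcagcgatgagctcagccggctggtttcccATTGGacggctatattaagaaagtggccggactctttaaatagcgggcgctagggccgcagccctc
The cell cycle element, cyclic AMP response element core, E-box and TEAD site were in 7.32%, 6.10%, 4.88% and 10.98% of raised windows and in 6.98%, 9.30%, 9.30% and 9.30% of lowered windows, against 10.1%, 10.8%, 9.24% and 11.4% of eligible windows and 15.2%, 7.98%, 7.26% and 14.0% of all windows. The forkhead site and the CArG box were in 1.22% and 2.44% of raised windows and in none of the 43 lowered windows, against 2.53% and 1.20% of eligible and 3.42% and 1.29% of all windows.

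Several lowered genes encode secreted or surface proteins of clotting, proteolysis, matrix or growth. F3 encodes tissue factor, the membrane protein that starts blood coagulation, and it was at 165, 174 and 183 TPM in VEH, 176, 170.3 and 185 with SLO ½ and 107, 107 and 108 with SLO. The 3 SLO libraries were nearly identical, at 61.6% of VEH. TNC encodes tenascin-C, a matrix glycoprotein of wounds and tumours, and it was at 78.3, 96.6 and 89.2 TPM in VEH, 85.4, 83.6 and 95.05 with SLO ½ and 43.2, 44.8 and 45.4 with SLO. Its mean with SLO ½ was within the spread of the VEH libraries, and SLO had 50.5% of the VEH level. NRG1, a ligand of ERBB receptors, was at 13.3, 15.5 and 15.01 TPM in VEH, 13.5, 12.9 and 13.4 with SLO ½ and 7.32, 6.69 and 7.01 with SLO.

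PLAUR encodes the urokinase receptor, which holds the protease urokinase at the cell surface. It was at 41.9, 44.6 and 49.3 TPM in VEH, 45.97, 43.3 and 45.99 with SLO ½ and 22.2, 22.6 and 22.96 with SLO, so that the full dose left 49.9% of the VEH level while the lower dose left 99.6%. Its ligand and an inhibitor of that ligand moved the other way and at both doses. PLAU, urokinase itself, was at 28.5 ± 3.58 TPM (SD, n = 3) in VEH, 90.4 ± 0.811 with SLO ½ and 78.6 ± 2.91 with SLO (edgeR log2 change 1.47 ± 0.07 in SLO, adjusted p = 3.16e-17). SERPINE2, an inhibitor of urokinase, was at 50.9, 125 and 111 TPM (edgeR log2 change 1.13 ± 0.05 in SLO, adjusted p = 2.27e-18, and 1.34 ± 0.05 in SLO ½, adjusted p = 1.75e-19).

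IL11, a cytokine of the IL-6 family that signals through gp130, stood highest at the lower dose. It was at 76.4, 80.8 and 85.4 TPM in VEH, 95.1, 91.6 and 87.9 with SLO ½ and 44.8, 49.2 and 48.6 with SLO, and the 3 groups did not overlap. IL6 had means of 4.103 ± 0.491 TPM (SD, n = 3), 20.8 ± 2.06 and 24.3 ± 3.79 in VEH, SLO ½ and SLO, higher at both doses (edgeR log2 change 2.58 ± 0.13 in SLO, adjusted p = 2.56e-16), and LIF had means of 30.03, 35.9 and 34.2 TPM. Of 31 factors of the secretory phenotype tested, 23 passed upwards and 4 downwards in SLO, with a median log2 change of 1.13 against 0.01 over all tested genes, and 26 and 0 in SLO ½. IL11 and PLAUR are the members of that list among the 94 genes, and both are on the lowered side. The same list set SLO against SLO ½ as 6 higher and 13 lower.

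SERPINB7, an intracellular inhibitor of serine proteases, had the second strongest fall, at 10.2, 10.6 and 12.5 TPM in VEH, 11.1, 9.93 and 11.2 with SLO ½ and 3.77, 4.07 and 3.89 with SLO, or 35.2% of VEH. It was 1 of 12 serpins tested, of which 10 passed upwards and 1 downwards in SLO. The strongest was NTNG1 (netrin-G1, a lipid-anchored protein of axon surfaces) at 3.14, 3.66 and 4.11 TPM in VEH, 3.41, 3.25 and 2.93 with SLO ½ and 1.46, 1.05 and 0.948 with SLO, which is 31.7% of VEH but rests on 32 to 54 counts per SLO library. HHIP, which binds and holds back Hedgehog ligands, was at 31.04 TPM in VEH, 30.8 with SLO ½ and 16.9 with SLO. NTNG1 and HHIP belong to lists of 49 axon guidance and 49 Hedgehog and cilium genes tested, in which 33 and 6 passed upwards and 11 and 26 downwards in SLO.

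Receptors and membrane proteins made up a further set of falls. CAV1 encodes caveolin-1, the coat protein of the membrane pits called caveolae, and it was the most abundant of the 94 genes, at 1041, 1097 and 1138 TPM in VEH, 995, 942 and 972 with SLO ½ and 562, 556 and 574 with SLO. The SLO ½ libraries lay just under those of VEH, at 88.8% of the VEH mean, and SLO at 51.6%. EMP1, a membrane protein of the tetraspan family, was at 35.9, 38.3 and 47.3 TPM in VEH, 37.7, 34.1 and 36.6 with SLO ½ and 17.9, 16.2 and 16.9 with SLO. AGTR1, the angiotensin II receptor that couples to Gq, was at 23.1, 24.6 and 22.3, 25.3, 23.5 and 26.6 and 11.4, 11.2 and 12.6 TPM in the same order, or 50.4% of VEH at the full dose. RGS4, a protein that shortens signalling by such receptors, was at 7.27, 7.21 and 8.35 TPM in VEH, 8.51, 7.598 and 8.42 with SLO ½ and 4.26, 3.73 and 2.37 with SLO, and its SLO libraries spread more widely than those of VEH.

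NRP1, the neuropilin that serves as a co-receptor for semaphorins and VEGF, was at 16.96, 21.7 and 20.3 TPM in VEH, 16.9, 17.5 and 17.7 with SLO ½ and 11.9, 11.6 and 12.1 with SLO. Its relative NRP2 moved the other way, from 1.36 ± 0.125 TPM (SD, n = 3) in VEH to 2.12 ± 0.206 with SLO ½ and 1.89 ± 0.0755 with SLO (edgeR log2 change 0.49 ± 0.14 in SLO, adjusted p = 0.00348). GPR162, an orphan receptor, was at 54.5% of VEH in SLO, with 29 to 46 counts per SLO library. Of 91 G protein-coupled receptors tested, 44 passed upwards and 15 downwards in SLO, and AGTR1, GPR162 and the raised GPR157 are those among the 94 genes. Other lowered genes of the membrane were PKP3 (plakophilin-3 of desmosomes) at 62.4%, KCNQ5 (a potassium channel) at 60.5%, TRPM2 (a calcium channel opened by ADP-ribose) at 55.2% and EFHD2 (a calcium-binding actin regulator) at 60.6% of VEH.

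Enzymes of nucleotide metabolism and a factor of ribosome assembly were among the other lowered genes. IMPDH1, the rate-limiting enzyme of guanine nucleotide synthesis, was at 53.5, 61.95 and 56.9 TPM in VEH, 49.03, 48.1 and 53.1 with SLO ½ and 30.1, 30.5 and 30.8 with SLO, with no overlap between the 3 groups. NME1 and AK5, kinases that pass phosphate between nucleotides, were at 60.6% and 48.2% of VEH in SLO. GAR1, a protein of the particles that guide pseudouridylation of ribosomal RNA, was at 61.5, 68.2 and 74.6 TPM in VEH, 63.2, 53.3 and 65.2 with SLO ½ and 41.2, 37.98 and 38.8 with SLO. It belongs to a list of 93 ribosome biogenesis genes, of which 2 passed upwards and 70 downwards in SLO (median log2 change -0.29), against 12 and 26 in SLO ½ (median 0.005), and 1 and 79 in SLO against SLO ½. DDX47, an RNA helicase of the same list, is on the raised side, at 3.25 TPM in VEH and 5.32 in SLO. Its place there is weak: it had 50 to 110 counts per library. It met the rule in 3 of 9 cases with 1 library left out, and under none of 3 other scalings.

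MT2A, a metallothionein that binds zinc and copper, was at 983, 954 and 1037 TPM in VEH, 910.4, 869 and 889 with SLO ½ and 536, 489 and 510.2 with SLO. It has close relatives in the genome, of which MT1E was at 201 ± 17.6 TPM (SD, n = 3), 164 ± 11.9 and 107 ± 7.25 and passed downwards at both doses (edgeR log2 change -0.90 ± 0.07 in SLO, adjusted p = 6.49e-12). MT1X, at a low level, had means of 3.28 ± 0.435, 5.18 ± 1.4003 and 4.61 ± 1.09 TPM, higher in SLO ½ (edgeR log2 change 0.70 ± 0.26, adjusted p = 0.024) and not called in SLO (adjusted p = 0.108). MOK, a kinase related to the MAP kinases, was at 94.6, 96.6 and 94.9 TPM in VEH, 86.3, 93.7 and 84.9 with SLO ½ and 39.2, 44.5 and 40.4 with SLO. UGT2B7, a glucuronosyltransferase that conjugates drugs and steroids, was at 18.5, 17.8 and 16.8, 11.7, 17.5 and 19.8 and 8.16, 7.55 and 7.02 TPM, with 1 low SLO ½ library. FAM167A was at 18.3, 18.3 and 19.6 TPM in VEH, 18.3, 17.4 and 19.3 with SLO ½ and 8.43, 5.94 and 6.53 with SLO, or 37.2% of VEH.

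KRT34, a keratin, was at 11.4, 9.29 and 14.3 TPM in VEH, 10.2, 9.105 and 11.8 with SLO ½ and 7.29, 5.72 and 3.996 with SLO, against 12 higher and 4 lower of 16 intermediate filament genes tested in SLO. IFITM2, an interferon-induced membrane protein that blocks viral entry, was at 62.4, 50.9 and 50.4 TPM in VEH, 51.6, 48.6 and 50.6 with SLO ½ and 32.7, 31.4 and 31.6 with SLO. Its list of 55 interferon-stimulated genes had 54 higher and 0 lower in SLO ½ and 41 higher and 3 lower in SLO. The remaining falls lay between 52.3% and 62.2% of VEH: FBXL19 (an F-box protein that binds CpG islands), B4GALNT4 and GALNT6 (N-acetylgalactosaminyltransferases), SPACA6 (a sperm protein), DNAJC17 (a co-chaperone), IFRD2 and TIMM13 (a carrier of proteins into mitochondria). Counts of IFITM2, MT2A, KRT34 and UGT2B7 are less certain, since each belongs to a family of similar genes that can share reads. The size of this was not measured.

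**Figure D3:**
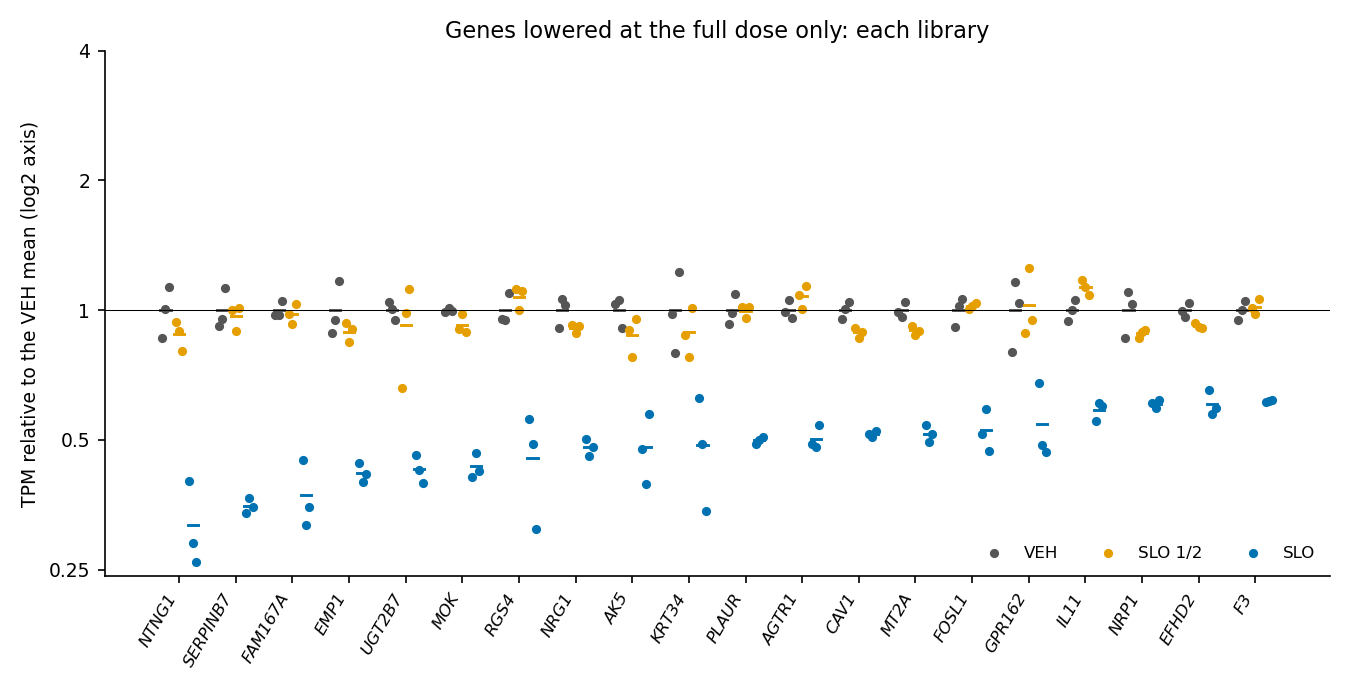
TPM of 20 lowered genes in each library relative to the VEH mean of the gene, on a log2 axis, with points for libraries and bars for group means. All SLO libraries lie below the VEH and SLO ½ libraries, which overlap each other for most genes but not for CAV1, MT2A, MOK, EFHD2 and IL11.

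The raised genes had lower levels than the lowered ones, and both genes with the highest ratios encode secreted proteins. OLFML2A, a secreted protein with an olfactomedin domain, had the highest ratio of all, at 9.72, 7.69 and 5.97 TPM in VEH, 9.34, 7.85 and 8.58 with SLO ½ and 21.997, 20.98 and 23.98 with SLO, or 2.86 times VEH. PDGFB, the B chain of platelet-derived growth factor, followed with 4.903, 6.91 and 4.14 TPM in VEH, 5.695, 5.85 and 5.96 with SLO ½ and 13.2, 13.7 and 16.1 with SLO, or 2.695 times VEH. In both, VEH libraries varied more than the SLO ½ libraries and lay on either side of them.

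Other ligands of the PDGF family moved in different ways. PDGFD had means of 0.5701 ± 0.1299 TPM (SD, n = 3) in VEH, 1.37 ± 0.0896 with SLO ½ and 2.93 ± 0.387 with SLO (edgeR log2 change 2.34 ± 0.27 in SLO, adjusted p = 9.37e-09, and 1.28 ± 0.31 in SLO ½, adjusted p = 8.83e-04). PDGFC fell from 58.8 ± 1.696 TPM to 37.9 ± 3.32 and 33.2 ± 1.57 (edgeR log2 change -0.82 ± 0.06 in SLO, adjusted p = 1.98e-13). PDGFA was at 3.82, 4.18 and 5.73 TPM, higher in SLO by an edgeR log2 change of 0.60 ± 0.17 (adjusted p = 0.0028). It was not called in SLO ½ (adjusted p = 0.43), so that it moved like PDGFB but by less. The receptor PDGFRB, which binds the B and D chains, was at 60.2, 41.1 and 49.2 TPM. Of 38 growth factors tested, 22 passed upwards and 8 downwards in SLO.

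TGFBR1, the kinase subunit of the TGF-beta receptor, was among the most abundant raised genes, at 91.6, 93.9 and 89.3 TPM in VEH, 96.96, 91.6 and 96.6 with SLO ½ and 167, 159 and 176 with SLO. The SLO libraries were at 1.82 times VEH and far from the other 6. Its partner TGFBR2 had means of 49.3 ± 2.07 TPM (SD, n = 3) in VEH, 49.3 ± 2.29 with SLO ½ and 43.8 ± 1.5003 with SLO (edgeR log2 change -0.16 ± 0.05 in SLO, adjusted p = 0.00421), and the ligands TGFB1, TGFB2 and TGFB3 did not pass in SLO (adjusted p = 0.542, 0.0915 and 0.636 by edgeR). Of 36 genes of this pathway tested, 20 passed upwards and 10 downwards in SLO, and 17 and 6 in SLO ½.

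Further raised genes of the surface and the secretory route were CXADR, a junction protein and virus receptor, at 17.9, 17.8 and 16.4 TPM in VEH, 20.3, 19.1 and 20.1 with SLO ½ and 39.7, 35.6 and 39.5 with SLO, and ARMH4, a membrane protein, at 2.67, 3.196 and 2.05, 2.25, 3.05 and 2.49 and 6.49, 5.604 and 5.51 TPM. CREG1, a glycoprotein of lysosomes, was at 68.4, 68.2 and 66.7 TPM in VEH, 78.5, 74.9 and 78.7 with SLO ½ and 129, 112 and 118 with SLO, with SLO ½ just above VEH at 114% of it. The SLO ½ libraries of CXADR likewise all lay above those of VEH. ADAMTS2, which trims the ends of procollagens, was at 1.75 times VEH, and METRNL, a secreted meteorin-like protein, at 1.63 times. Of 42 matrix proteases and inhibitors tested, 28 passed upwards and 5 downwards in SLO. Others were the receptor GPR157 (1.699 times VEH), ATRNL1 (1.67) and SERINC5 (19.1 against 11.9 TPM), a membrane protein that lowers the infectivity of retroviruses.

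The actin cytoskeleton supplied 2 of the most abundant raised genes, grouped here by role. The list of contractile and actin genes holds none of the 94. Of its 54 genes tested, 40 passed upwards and 12 downwards in SLO, and 39 and 7 in SLO ½. RHOB, a small GTPase of endosomes and actin that is induced by stress and growth factors, was at 257, 264 and 261 TPM in VEH, 282, 284 and 271 with SLO ½ and 447, 433 and 454 with SLO. Its relatives differed: RHOA had means of 791, 788 and 784 TPM and did not pass (edgeR adjusted p = 0.895 in SLO), whereas RHOC had means of 46.4, 70.5 and 78.5 TPM and passed at both doses (edgeR log2 change 0.77 ± 0.05 in SLO, adjusted p = 4.25e-13). ENAH, which lengthens actin filaments at the cell edge, was at 112, 114 and 114 TPM in VEH, 123, 113 and 120.4 with SLO ½ and 191, 181 and 204 with SLO. DOCK11, an activator of the GTPase CDC42, was at 7.45, 8.199 and 7.94, 9.99, 8.299 and 8.42 and 14.9, 14.6 and 17.6 TPM in the same order.

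TTLL7, which adds glutamate chains to tubulin, was at 4.89, 4.73 and 4.72 TPM in VEH, 5.45, 4.55 and 5.43 with SLO ½ and 9.39, 9.84 and 9.82 with SLO. The others of this kind were PLEKHH2 and FRMD5 (proteins with FERM domains) at 1.97 and 1.84 times VEH, PDLIM3 (a partner of alpha-actinin) at 1.76, FILIP1L (a relative of a filamin-binding protein) at 1.75, LZTS3 at 1.76, RHOBTB1 at 1.69 and RSPH3 (a radial spoke protein of cilia) at 1.64.

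The 4 solute carriers among the 94 genes were all raised. SLC12A2, the sodium, potassium and chloride cotransporter NKCC1 that sets cell volume, was at 24.4, 30.7 and 28.8 TPM in VEH, 33.1, 30.6 and 30.3 with SLO ½ and 52.5, 54.03 and 55.98 with SLO, or 1.94 times VEH. SLC2A13, which carries myo-inositol with protons, was at 6.57, 6.65 and 5.02, 5.94, 6.25 and 5.35 and 9.88, 10.6 and 10.8 TPM. SLC16A7 (a monocarboxylate carrier) and SLC22A23 (an orphan carrier) were at 1.64 and 1.65 times VEH, ATP13A3 (a polyamine pump) went from 70.7 to 113 TPM, and KCNAB2 (a beta subunit of potassium channels) at 2.05 times but below 2 TPM in every library. Of 223 solute carriers tested, 108 passed upwards and 45 downwards in SLO, and 75 and 37 in SLO ½.

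Membrane traffic was represented by 2 partners of the recycling GTPase RAB11. RAB11FIP1 was at 32.9, 32.1 and 31.5 TPM in VEH, 37.03, 31.3 and 34.5 with SLO ½ and 62.5, 58.9 and 61.9 with SLO, and TBC1D12 at 20.9, 22.8 and 22.4, 25.2, 25.9 and 24.7 and 34.7, 35.3 and 38.002 TPM. The SLO ½ libraries of TBC1D12 all lay above those of VEH. SNX29 (a sorting nexin), CLTCL1 (a clathrin heavy chain) and RUNDC3B were at 1.61, 1.71 and 1.76 times VEH, and PCLO (piccolo, a scaffold of presynaptic sites) went from 1.08 to 1.72 TPM. Of 146 Ras, Rap and Rab GTPases and regulators tested, 61 passed upwards and 42 downwards in SLO. These are 41.8% and 28.8%, against 32.9% and 32.1% of all tested genes.

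A further raised pair belongs to cyclic AMP signalling. AKAP5, an anchor that holds protein kinase A at membranes, was at 13.03, 13.7 and 12.9 TPM in VEH, 14.3, 13.8 and 13.99 with SLO ½ and 27.3, 24.1 and 27.1 with SLO, and PRKACB, a catalytic subunit of that kinase, at 25.3, 27.7 and 24.1, 30.4, 28.1 and 29.5 and 45.7, 40.1 and 43.7 TPM. In both, all SLO ½ libraries lay above those of VEH, and PRKACB passed in SLO ½ by edgeR. PPM1E, a serine and threonine phosphatase, was at 2.204 times VEH, PITPNC1, a carrier of phosphatidylinositol, at 1.99, MCC at 1.97 and PHLDB3 at 1.65.

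Among raised genes of the endoplasmic reticulum and lipid metabolism, TXNDC16, a thioredoxin-like protein, was at 32.4, 29.7 and 28.8 TPM in VEH, 35.9, 30.5 and 34.6 with SLO ½ and 67.9, 60.95 and 70.9 with SLO, and TMX4, a membrane-bound relative, at 1.63 times VEH. LPCAT2, which acylates lysophospholipids and makes platelet-activating factor, was at 1.95 times VEH, CLN8, which helps lysosomal enzymes leave the endoplasmic reticulum, at 1.78, ALDH3A2, the fatty aldehyde dehydrogenase, at 1.62, PIGZ, of the pathway for lipid anchors of proteins, at 1.68, and TM7SF2, a sterol reductase, at 1.63. Of 26 cholesterol synthesis genes tested, TM7SF2 among them, 7 passed upwards and 15 downwards in SLO, and 0 and 12 in SLO ½.

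SSBP2, a nuclear cofactor of LIM-domain proteins, was at 7.37, 6.01 and 5.75 TPM in VEH, 6.45, 6.32 and 6.59 with SLO ½ and 13.3, 11.5 and 12.98 with SLO. FAM210B, a mitochondrial membrane protein, was at 90.1, 85.1 and 89.05 TPM in VEH, 106, 91.6 and 96.95 with SLO ½ and 149.9, 149.9 and 156 with SLO, with SLO ½ just above VEH. The last of the 58 were FAM89A (1.74 times VEH), BPHL, a hydrolase that activates valacyclovir (1.71), GREB1L (1.71), TEX15 of germ cells (1.701), PGPEP1, a peptidase that removes pyroglutamate (1.69), MARCHF1, a ubiquitin ligase of MHC class II (1.63), and ZNF333, a zinc finger protein (1.63).

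**Figure D4:**
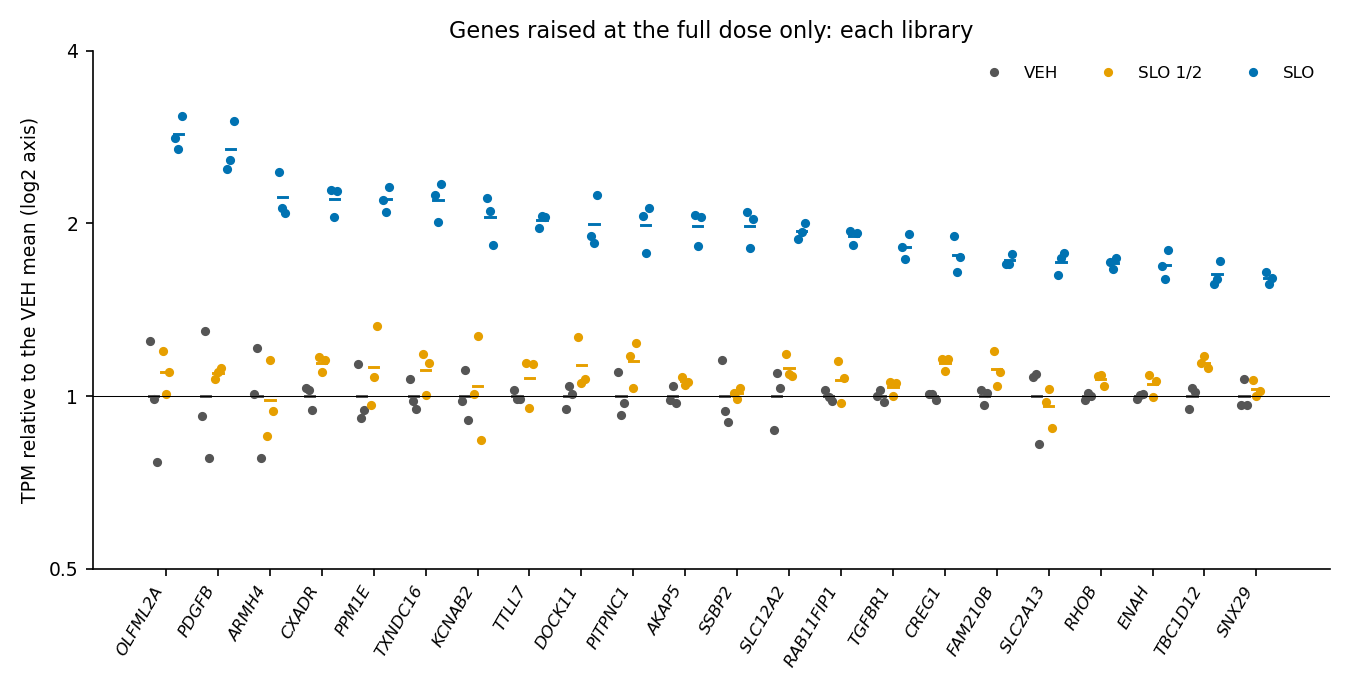
TPM of 22 raised genes in each library relative to the VEH mean of the gene, on a log2 axis, with points for libraries and bars for group means. All SLO libraries lie above the other 6, and the SLO ½ means lie between 96.2% and 115% of VEH.

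Raised genes lay in longer loci than lowered genes. The median length of the annotated locus was 100.8 kb for the 58 raised genes (quartiles 29.5 and 202 kb) and 23.9 kb for the 36 lowered genes (8.78 and 66.4 kb), against 35.8 kb for eligible genes. Genes at 1.6 times or more in SLO, whatever they did in SLO ½, had a median of 40.6 kb when higher and 47.1 kb when lower. The median level in VEH was 8.59 TPM for raised genes (quartiles 4.15 and 18.5), 22.4 TPM for lowered genes (8.58 and 60.1) and 32.4 TPM for eligible genes, and the corresponding medians of all genes past 1.6 times were 10.5 and 30.6 TPM. Replicates of the chosen genes varied more than those of eligible genes, with a median coefficient of variation of 7.20% (raised) and 6.48% (lowered) against 4.63%. The part of level and counting error in the differences of length was not tested.

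**Figure D5:**
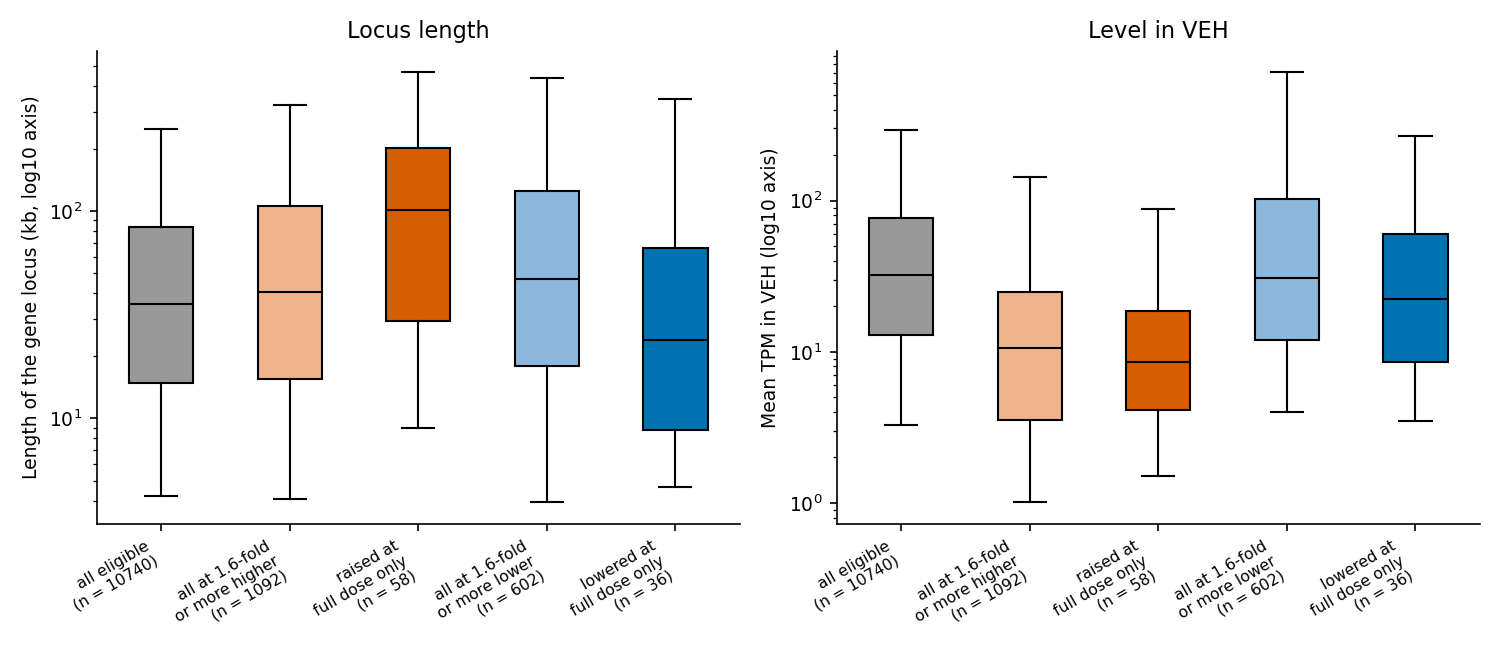
Length of the annotated locus in kb (left) and mean TPM in VEH (right), both on log10 axes, for the 10740 eligible genes, all genes at 1.6 times or more in SLO and the genes with a response at the full dose only; boxes span the quartiles, lines mark medians and whiskers reach the 5th and 95th percentiles. The raised genes have the longest loci (median 100.8 kb) and the lowest levels.

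Some of the 94 genes are neighbours in the genome. On chromosome 1 the raised genes TTLL7 and PRKACB are 78.9 kb apart with no eligible gene between them, and on chromosome 11 the lowered genes IFITM2, B4GALNT4 and PKP3 follow each other with gaps of 60.1 kb (1 eligible gene between) and 10.5 kb (none between). JUND and PGPEP1 on chromosome 19 (59.0 kb) and BPHL and SLC22A23 on chromosome 6 (115 kb), all raised, have 1 eligible gene between them. Within 1 Mb there were also 4 pairs of opposite direction: PHLDB3 and PLAUR, DDX47 and EMP1, TM7SF2 and FOSL1, and TEX15 and NRG1.

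Genes near the limits of the rule show how close the choice is. PCLO was the raised gene nearest to 1.6 times VEH (1.6002) and CDON just missed it (1.5977), while among falls PKP3 was just inside (0.6238) and AURKA, a mitotic kinase, just outside (0.6284). In SLO ½, PITPNC1 was inside the upper limit at 115% of VEH and SNPH outside, SLC16A7 was inside the lower limit at 92.4% and SCN9A outside although it was at 2.11 times VEH in SLO, and B4GALNT4 was inside the lower limit at 86.96% and ARSJ outside. IL11 was the lowered gene with the highest SLO ½ mean relative to VEH (113%), and FAM89A had the lowest mean count of all (52.4).

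Membership was sensitive to single libraries. With any 1 of the 9 libraries left out in turn, 21 of the 58 raised and 13 of the 36 lowered genes met the rule every time, and with 3 other scalings of the counts in place of TPM 33 and 26 did. Both held for 17 raised genes, ARMH4, TTLL7, AKAP5, SSBP2, LPCAT2, RAB11FIP1, FRMD5, TGFBR1, RUNDC3B, PDLIM3, LZTS3, FILIP1L, ADAMTS2, JUND, CLTCL1, RHOB and ENAH, and for 12 lowered genes, GPR162, HHIP, FOSL1, MT2A, TNC, AGTR1, PLAUR, NRG1, RGS4, MOK, FAM167A and SERPINB7. OLFML2A and PDGFB, the strongest rises, and NTNG1, the strongest fall, were not among them. Under none of the 3 other scalings did the raised CXADR, DOCK11, PITPNC1, CREG1, BPHL, RHOBTB1, PRKACB, DDX47, TM7SF2, TBC1D12 and METRNL meet the rule. Nor did the lowered IL11.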

How the data were processed

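RNA of HMC3 cells was measured in 9 libraries, 3 each of VEH, SLO ½ and SLO, grouped by the sample labels. The authors used Trimmomatic 0.38 for trimming and STAR 2.7.1a for alignment to GRCh38 and for counts per gene, and the deposited counts are whole reads without normalization. They also deposited TPM, which within a gene is the count times a constant and a factor per library. The annotation release is not given in the sources used here. Summary lines that name no gene (18.0% to 20.1% of reads) were left out. A library held 14834295 to 19674841 reads on genes, and their number limits the precision of genes near the minimum of 50 counts.

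The rule was applied to TPM means. A gene counted as protein coding when protein_coding was among the transcript categories that the authors list for it. Counts were analysed with edgeR 4.0.16 in R 4.3.3 (filterByExpr, TMM, quasi-likelihood test on the 3 groups, Benjamini-Hochberg over 14727 genes, called under an adjusted p of 0.05), after a test on simulated data. DESeq2 1.42.0 and limma 3.58.1 on log2(TPM + 1) or log2(TPM + 0.1) were alternatives. Values are means ± SD of 3 libraries, and edgeR changes are log2 ± SE.

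The genes, the lists and the motifs were chosen with earlier results of these data known. Named genes were, in each direction, the 12 with the largest ratio, the 5 most abundant, the 2 largest of any list with 2 members, and those next to a limit. The other genes were named so that all 94 are accounted for, and the groups by role and the relatives set beside them were chosen after values were seen.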

Additional observations from a re-analysis of the deposited data

How the results depend on the processing

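All 94 genes were called in SLO against VEH under each of the alternatives run, and 93 or 94 in SLO against SLO ½. The choice of genes largely fixes these calls, so they are no evidence of robustness. The share of all tested genes called is given above for the main fit only. In SLO ½ against VEH 20 were called, 12 by DESeq2's Wald test, 13 by limma on log2(TPM + 1) and 13 on log2(TPM + 0.1), and 13 to 22 with 1 library left out (13 without the third SLO ½ library). The number of raised and lowered genes (58 and 36) depended on the limits themselves. It was 37 and 20 with SLO ½ held to 90.9% to 110.0% of VEH and 158 and 91 with 80.0% to 125.0%, 105 and 56 with 1.5 times and 8 and 11 with 2 times in SLO, 37 and 23 with at least 200 counts and 197 and 145 with no minimum, and the falls were 57 with at least 10 counts. If only genes whose sole category is protein_coding count, an alternative chosen after seeing the data, 11 and 8 remained. Leaving out 1 library gave 54 to 76 rises and 31 to 43 falls, of which at least 40 and 26 were among the 58 and 36. Scaling by library size alone gave 56 and 49, of which 33 and 26 were. The causes were not tested. Fold changes of the 52 named genes kept their sign wherever the main value was called.

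Correlations between the deviations of same-numbered replicates were small and all positive (0.00277 to 0.0873, against -0.0621 to 0.0370 for different numbers). The labels do not say whether the numbers stand for a pairing or a batch, and this was not tested. With the replicate number as a block 94, 20 and 94 genes were called in SLO against VEH, SLO ½ against VEH and SLO against SLO ½. The choice of genes largely fixes the counts of 94.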

Other observations

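Outside the protein-coding genes, 616 genes had a mean of at least 50 counts, and 5 of them met the same limits upwards and 6 downwards, with mean counts between 54.4 and 298. The largest rise was ZDHHC12-DT, a divergent transcript, at 17.0, 22.7 and 22.9 TPM in VEH, 19.6, 27.1 and 21.3 with SLO ½ and 41.1, 43.8 and 55.1 with SLO. LINC00963, a long non-coding RNA, had means of 5.06, 4.68 and 8.11 TPM in the same order, and LINC02175 had 2.61, 2.68 and 4.28. SNHG19, a host of small nucleolar RNAs, was at 37.7, 32.3 and 36.2 TPM in VEH, 33.6, 33.9 and 33.3 with SLO ½ and 22.6, 27.3 and 15.7 with SLO. AGAP2-AS1 and PXN-AS1, both antisense to protein-coding genes, had means of 16.5, 14.4 and 9.95 TPM and of 3.77, 3.55 and 2.34 TPM. MIR99AHG and LINC01291 were also lower in SLO, as was the read-through locus RTEL1-TNFRSF6B, and 2 raised genes have an identifier but no name in the files. Counts of genes that overlap a neighbour are less certain.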
